A study of Mus musculus with 9 samples.

Results

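Mast cells were represented in whole knee joints by 9 genes, picked by symbol and found among the 53379 Ensembl gene IDs of the count tables, each under 1 ID. They were the granule proteases Mcpt4, Cma1, Tpsb2 and Cpa3, the histamine-forming enzyme gene Hdc, the receptor genes Kit, Ms4a2 and Fcer1a, and the transcription factor gene Gata2. RNA came from knee joints of male C57BL/6 mice and was sequenced in 9 libraries. The PC2 group (3 libraries) held joints in which the anterior cruciate ligament was cut at 8 weeks of age (ACLT, a surgical model of osteoarthritis) and which received a lentivirus expressing PC2 by injection 1 week later. The Luc group (3 libraries) had the same operation and a lentivirus expressing Luc, and both were collected 8 weeks after the virus. The Non surgery group (3 libraries) had no operation. The groups of every comparison also differ by pool, and treatment and pool cannot be told apart. The sources used here do not give the age of the Non surgery mice, whether they were injected, the promoter of the viruses or the number of mice. Each group is 1 pool of RNA from which 3 technical repeats were sequenced, so the p-values below measure technical spread only and hold no difference between mice.

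Mast cells are tissue-resident haematopoietic cells that mature under stem cell factor, the ligand of the receptor tyrosine kinase KIT. Their granules hold histamine, made by the enzyme that Hdc encodes, and proteases packed on heparin: chymases (in mice Mcpt4 and Cma1), tryptases (Tpsb2) and carboxypeptidase A3 (Cpa3). IgE binds them through a receptor made of an alpha chain (Fcer1a), a beta chain (Ms4a2) and a gamma chain shared with other Fc receptors (Fcer1g). In joints they lie in the synovium and its fat, often near vessels. Several of these genes are not limited to mast cells. Basophils, granulocytes of the marrow and blood, also carry the IgE receptor and make histamine, Kit and Gata2 are expressed in haematopoietic progenitors, and Gata2 also in endothelium.

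Each library held 17835989 to 19004316 counts in genes. The 9 members had 12 to 2615 counts per library, with the lowest values in Cma1 and the highest in Hdc, and all 9 passed the filter on low counts. No base of their exons was shared with the exons of another gene in GENCODE M21. Of the 50-base stretches of their transcripts, 5.48% in Mcpt4, 5.38% in Cma1 and 2.10% in Ms4a2 also occurred in another gene, and under 1% in each of the other 6. Values below are CPM, read counts scaled to a common library size with TMM factors. The words rose and fell are kept for an adjusted p under 0.05 in edgeR's quasi-likelihood test over all genes.

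The members did not move as a block. Of the granule proteases, Mcpt4, Cma1 and Tpsb2 rose in PC2 relative to Luc libraries by 2.13-fold to 2.19-fold. None of these 3 passed the test between Luc and Non surgery libraries. Cpa3, also a granule protease, rose 1.29-fold in PC2 relative to Luc, a call that ended with some single libraries left out. Cpa3, Hdc, Ms4a2, Fcer1a and Gata2 fell in Luc relative to Non surgery libraries, by 1.54-fold to 2.62-fold, and also fell in PC2 relative to Non surgery libraries. Kit was lowest in the PC2 libraries. In PC2 against Luc, 5 of the 9 members rose and 2 fell, where 16.1% of the 17478 genes tested rose and 18.6% fell. In Luc against Non surgery 6 of the 9 fell and 0 rose, where 27.7% of all genes fell and 31.1% rose. In PC2 against Non surgery 3 rose and 6 fell, where 31.5% rose and 31.2% fell. The median log2 fold change of the 9 was 0.32 in PC2 against Luc, -0.62 in Luc against Non surgery and -0.60 in PC2 against Non surgery, beside 0.0080, 0.025 and 0.010 over all genes tested. Changes of at least 2-fold were seen in PC2 against Luc for 3 members, all higher (of all genes 1.30% were higher), in Luc against Non surgery for 0 higher and 2 lower (of all genes 9.43% and 6.32%) and in PC2 against Non surgery for 2 higher and 2 lower (of all genes 9.83% and 6.53%). By library size only, the genes changed at least 2-fold split into 2065 higher and 824 lower in Luc against Non surgery, against 1648 and 1104 with TMM factors, and into 2122 and 834 in PC2 against Non surgery, against 1718 and 1142. Groups did not overlap for 8 members in PC2 against Luc, 5 in Luc against Non surgery and 9 in PC2 against Non surgery, as was so for 48.0%, 62.9% and 66.0% of all genes. The 3 comparisons share libraries in pairs, so they are not independent. In bulk samples, fewer cells of a type and less RNA per cell cannot be told apart.

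**Figure D1:**
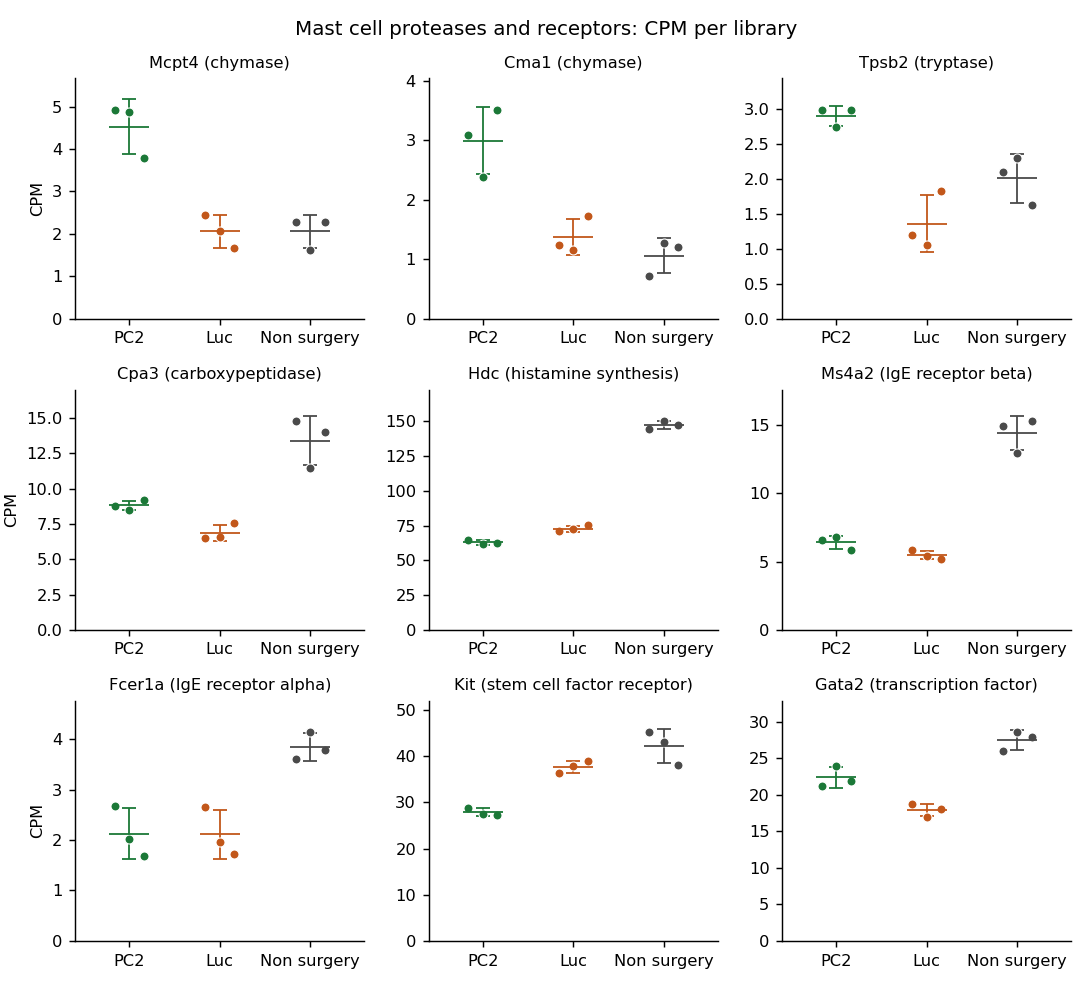
CPM (linear axis from 0) of the 9 members in each library of the PC2, Luc and Non surgery groups; points are libraries, and bars are the mean and SD of 3. Mcpt4, Cma1 and Tpsb2 are highest in the PC2 libraries, and the other 6 have their highest mean in the Non surgery libraries.

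Promoter sequence is shown for 4 members that stand for both patterns. Mcpt4 and Cma1 rose at least 2-fold in PC2 relative to Luc, and Cpa3 and Ms4a2 fell in Luc relative to Non surgery. Cpa3 also rose in PC2 relative to Luc, by 1.29-fold. The windows run from 250 bases before to 50 bases after the annotated start, in RefSeq's annotation of GRCm38.p6 (the mm10 assembly), and are written 5′ to 3′ on the gene's own strand, which is the minus strand for all 4. Capitals mark letters of the kind bound by GATA factors, the family to which the member Gata2 belongs.
Mcpt4 (chr14:56062261-56062560): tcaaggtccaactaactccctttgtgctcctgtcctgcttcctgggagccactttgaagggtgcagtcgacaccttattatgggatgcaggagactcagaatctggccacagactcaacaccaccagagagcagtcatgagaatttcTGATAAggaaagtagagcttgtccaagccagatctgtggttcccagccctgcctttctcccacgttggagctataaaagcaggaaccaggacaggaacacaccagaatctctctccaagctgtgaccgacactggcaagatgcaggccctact
Cma1 (chr14:55944626-55944925): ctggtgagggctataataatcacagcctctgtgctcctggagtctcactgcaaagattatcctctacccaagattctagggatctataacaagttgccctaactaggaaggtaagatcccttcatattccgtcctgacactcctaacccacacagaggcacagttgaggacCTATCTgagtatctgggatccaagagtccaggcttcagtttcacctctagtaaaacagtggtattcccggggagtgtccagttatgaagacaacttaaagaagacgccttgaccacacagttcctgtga
Cpa3 (chr3:20242132-20242431): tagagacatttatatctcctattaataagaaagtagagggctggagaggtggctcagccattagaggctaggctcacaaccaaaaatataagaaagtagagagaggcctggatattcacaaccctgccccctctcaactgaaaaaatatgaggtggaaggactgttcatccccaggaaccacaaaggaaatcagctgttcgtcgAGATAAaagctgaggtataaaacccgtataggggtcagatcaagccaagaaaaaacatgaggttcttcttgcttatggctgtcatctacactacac
Ms4a2 (chr19:11623670-11623969): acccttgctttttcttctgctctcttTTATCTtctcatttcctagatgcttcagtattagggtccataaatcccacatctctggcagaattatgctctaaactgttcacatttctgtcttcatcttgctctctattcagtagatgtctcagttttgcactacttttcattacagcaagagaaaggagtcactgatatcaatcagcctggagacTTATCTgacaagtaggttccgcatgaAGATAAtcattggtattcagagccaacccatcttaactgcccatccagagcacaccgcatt

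The letters AGATAA were searched on both strands, as were the letters AGATAG, the letters TGATAA and the letters TGATAG. Cpa3 held AGATAA, beginning 46 bases before its start, and Mcpt4 held TGATAA, 103 bases before. Cma1 held CTATCT, the reverse strand's AGATAG, 79 bases before its start. Ms4a2 held 3 matches, 224, 37 and 11 bases before. RefSeq windows were matched for 8 of the 9 members, of which 6 held a match: these 4, Hdc with TGATAG and Fcer1a with TTATCT. Kit and Gata2 held no match in any of their windows. The 8 members had 10 windows. Of 32851 promoter windows of this length, 29.8% held a match, which is a share of windows and not of genes. TATAAA on the gene's strand was found in Mcpt4, Cpa3 and Fcer1a, and in 8.32% of all windows, and overlapped no GATA letters in these 3. These are matches of letters, present in members of both patterns, and not measured sites of binding.

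Mcpt4 encodes mouse mast cell protease 4, a chymase of connective tissue mast cells (chromosome 14, 56059629 to 56062313). Mcpt4 had 4.92, 4.87 and 3.78 CPM in the PC2 libraries, 2.44, 2.06 and 1.67 CPM in the Luc libraries and 2.28, 1.61 and 2.28 CPM in the Non surgery libraries. All PC2 libraries lay above all others, and Luc and Non surgery libraries overlapped. The log2 fold change in PC2 against Luc was 1.13 ± 0.20 (SE), a 2.19-fold rise (adjusted p = 0.000301), and in PC2 against Non surgery 1.14 ± 0.20 (SE) (adjusted p = 0.000111). Luc and Non surgery libraries did not differ by the test, at 0.0062 ± 0.22 (SE) with a 95% interval of -0.47 to 0.48 (adjusted p = 0.984).

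Cma1 encodes mast cell chymase, and lies on chromosome 14 (55941451 to 55944675) in the same cluster of granule proteases. Cma1 had 3.09, 2.38 and 3.51 CPM in the PC2 libraries, 1.25, 1.16 and 1.72 CPM in the Luc libraries and 0.719, 1.27 and 1.20 CPM in the Non surgery libraries. These values rest on 47 to 67 counts per PC2 library, 22 to 32 per Luc library and 12 to 22 per Non surgery library. The PC2 libraries were again above all 6 others. Cma1 rose 2.17-fold in PC2 relative to Luc (log2 1.12 ± 0.24 (SE), adjusted p = 0.00196) and 2.80-fold in PC2 relative to Non surgery (adjusted p = 0.000104), the largest fold change among the 9 members. In Luc against Non surgery it had 0.37 ± 0.29 (SE), with overlapping libraries (adjusted p = 0.298).

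Tpsb2 encodes the beta tryptase of mouse mast cells, mouse mast cell protease 6 (chromosome 17, 25366305 to 25369098). Tpsb2 had 2.99, 2.74 and 2.99 CPM in the PC2 libraries, 1.20, 1.06 and 1.83 CPM in the Luc libraries and 2.10, 2.30 and 1.62 CPM in the Non surgery libraries. The PC2 libraries did not overlap with either other group, and Luc and Non surgery libraries overlapped. The rise in PC2 relative to Luc was 2.13-fold (log2 1.09 ± 0.23 (SE), adjusted p = 0.00140). Against Non surgery the PC2 libraries had 0.53 ± 0.22 (SE) (adjusted p = 0.0437), a call that ended when any of Non surgery replicates 1 and 3 or PC2 replicates 1, 2 and 3 was left out (adjusted p = 0.0720, 0.168, 0.0956, 0.0584 and 0.0951), with the replicate block (adjusted p = 0.0597), without the low-count filter (adjusted p = 0.0509) and with DESeq2 (adjusted p = 0.155). In Luc against Non surgery Tpsb2 had -0.56 ± 0.25 (SE) (adjusted p = 0.0596), and without Luc replicate 3 or Non surgery replicate 3 it passed at -0.83 and -0.70 (adjusted p = 0.0129 and 0.0354).

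Cpa3 encodes mast cell carboxypeptidase A (chromosome 3, 20215620 to 20242181), which is stored with the chymases and tryptases. Cpa3 had 8.80, 8.52 and 9.18 CPM in the PC2 libraries, 6.50, 6.56 and 7.54 CPM in the Luc libraries and 14.8, 11.4 and 14.0 CPM in the Non surgery libraries. The 3 groups did not overlap, with Non surgery highest, PC2 between and Luc lowest. Cpa3 fell 1.95-fold in Luc relative to Non surgery (log2 -0.97 ± 0.11 (SE), adjusted p = 9.78e-07) and 1.52-fold in PC2 relative to Non surgery (adjusted p = 0.000109). It rose 1.29-fold in PC2 relative to Luc (adjusted p = 0.0209), which no longer passed with any 1 of these libraries left out: PC2 replicate 3 (adjusted p = 0.0690), Luc replicate 1 (adjusted p = 0.0758) or Luc replicate 2 (adjusted p = 0.0672).

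The balance between the proteases differed between the pools. Per exon length, Mcpt4 reached 0.704 ± 0.122 of the Cpa3 level in PC2 libraries (SD, n = 3), 0.416 ± 0.107 in Luc and 0.209 ± 0.0154 in Non surgery libraries. The Cma1 level was 0.470 ± 0.0735 of that of Cpa3 in PC2, 0.277 ± 0.0367 in Luc and 0.114 ± 0.0434 in Non surgery libraries. In both ratios every PC2 library lay above every Luc library, and every Luc library above every Non surgery library. Between Luc and Non surgery, Mcpt4 and Cma1 did not pass the test, while Cpa3, the denominator, fell 1.95-fold in Luc. For Tpsb2 the ratio was 0.313 ± 0.00887 in PC2, 0.187 ± 0.0401 in Luc and 0.145 ± 0.0415 in Non surgery libraries, and Luc and Non surgery libraries overlapped. A ratio inside a library does not depend on how the libraries were scaled.

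Hdc encodes histidine decarboxylase, the enzyme that makes histamine (chromosome 2, 126593667 to 126619299). Hdc had 64.7, 61.6 and 62.5 CPM in the PC2 libraries, 70.9, 72.5 and 75.2 CPM in the Luc libraries and 144, 150.4 and 147 CPM in the Non surgery libraries. The Non surgery libraries held about double the level of the others, and no group overlapped with another. Hdc fell 2.02-fold in Luc relative to Non surgery (log2 -1.02 ± 0.039 (SE), adjusted p = 7.60e-13), and a further 1.16-fold in PC2 relative to Luc (log2 -0.21 ± 0.040 (SE), adjusted p = 0.000656). In PC2 against Non surgery the log2 fold change was -1.23 ± 0.040 (SE). In PC2 against Luc, Hdc and Kit moved opposite to Mcpt4, Cma1, Tpsb2 and Cpa3.

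Ms4a2, the beta chain that amplifies signals of the IgE receptor (chromosome 19, 11615523 to 11623719), had the largest fall of the 9 in Luc. Ms4a2 had 6.60, 6.80 and 5.87 CPM in the PC2 libraries, 5.82, 5.45 and 5.23 CPM in the Luc libraries and 14.9, 13.0 and 15.3 CPM in the Non surgery libraries. All Non surgery libraries lay above all 6 others. The fall was 2.62-fold in Luc relative to Non surgery (log2 -1.39 ± 0.10 (SE), adjusted p = 5.23e-09) and 2.24-fold in PC2 relative to Non surgery (adjusted p = 3.49e-08). In PC2 against Luc it had 0.22 ± 0.11 (SE) and did not pass (adjusted p = 0.143), although the libraries did not overlap, as those of 48.0% of all genes did not.

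Fcer1a, the IgE-binding alpha chain (chromosome 1, 173221284 to 173227214), was low, with 32 to 72 counts per library. Fcer1a had 2.67, 2.03 and 1.68 CPM in the PC2 libraries, 2.65, 1.96 and 1.72 CPM in the Luc libraries and 3.60, 4.14 and 3.78 CPM in the Non surgery libraries. The Non surgery libraries were the highest, and PC2 and Luc libraries overlapped. Fcer1a fell 1.82-fold in Luc relative to Non surgery (adjusted p = 0.00200) and 1.80-fold in PC2 relative to Non surgery (adjusted p = 0.00193). In PC2 against Luc it had 0.0082 ± 0.22 (SE) with a 95% interval of -0.47 to 0.48 (adjusted p = 0.984). Per exon length, Fcer1a stood at 0.929 ± 0.184 of the Ms4a2 level in PC2, 1.08 ± 0.185 in Luc and 0.758 ± 0.122 in Non surgery libraries (SD, n = 3). The gamma chain gene Fcer1g, which is no member and which many myeloid cells express, was far higher per length, at 125 ± 4.50 RPKM in PC2, 113 ± 5.24 in Luc and 119 ± 7.62 in Non surgery libraries.

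Kit encodes the stem cell factor receptor (chromosome 5, 75574916 to 75656722). Kit had 28.9, 27.5 and 27.2 CPM in the PC2 libraries, 36.3, 37.9 and 39.0 CPM in the Luc libraries and 45.3, 43.1 and 38.1 CPM in the Non surgery libraries. The PC2 libraries were below all others, and 1 Non surgery library lay within the range of the Luc libraries. Kit fell 1.35-fold in PC2 relative to Luc (log2 -0.44 ± 0.062 (SE), adjusted p = 4.67e-05) and 1.51-fold in PC2 relative to Non surgery (adjusted p = 3.01e-07). The fall of 1.12-fold in Luc relative to Non surgery (log2 -0.16 ± 0.060 (SE), adjusted p = 0.0308) depended on the scaling: by library size only the value was -0.00041 (adjusted p = 0.997). It also ended with DESeq2 (adjusted p = 0.0528) and without Luc replicate 1 or 2 or Non surgery replicate 1 or 2 (adjusted p = 0.121, 0.0581, 0.141 and 0.0674). Kitl, the gene of the KIT ligand, had 52.1 ± 3.62 CPM in PC2, 56.9 ± 3.35 in Luc and 68.8 ± 9.79 in Non surgery libraries. Kitl was lower in Luc relative to Non surgery (adjusted p = 0.00906), with overlapping libraries. Non surgery replicate 2, at 57.5 CPM, lay within the Luc range of 54.4 to 60.7 CPM. In PC2 against Luc Kitl did not pass (adjusted p = 0.250). This gene was chosen after its values were seen.

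Gata2 encodes a transcription factor of haematopoietic progenitors, mast cells and endothelium (chromosome 6, 88193891 to 88207032). Gata2 had 21.2, 24.0 and 21.9 CPM in the PC2 libraries, 18.7, 17.0 and 18.0 CPM in the Luc libraries and 26.0, 28.6 and 27.9 CPM in the Non surgery libraries. The groups did not overlap, in the same order as for Cpa3. Gata2 fell 1.54-fold in Luc relative to Non surgery (log2 -0.62 ± 0.070 (SE), adjusted p = 9.66e-07) and rose 1.25-fold in PC2 relative to Luc (log2 0.32 ± 0.071 (SE), adjusted p = 0.00222). In PC2 against Non surgery it fell by 0.30 on the log2 scale (adjusted p = 0.00123), a call that ended by library size only, at -0.14 (adjusted p = 0.0889).

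**Figure D2:**
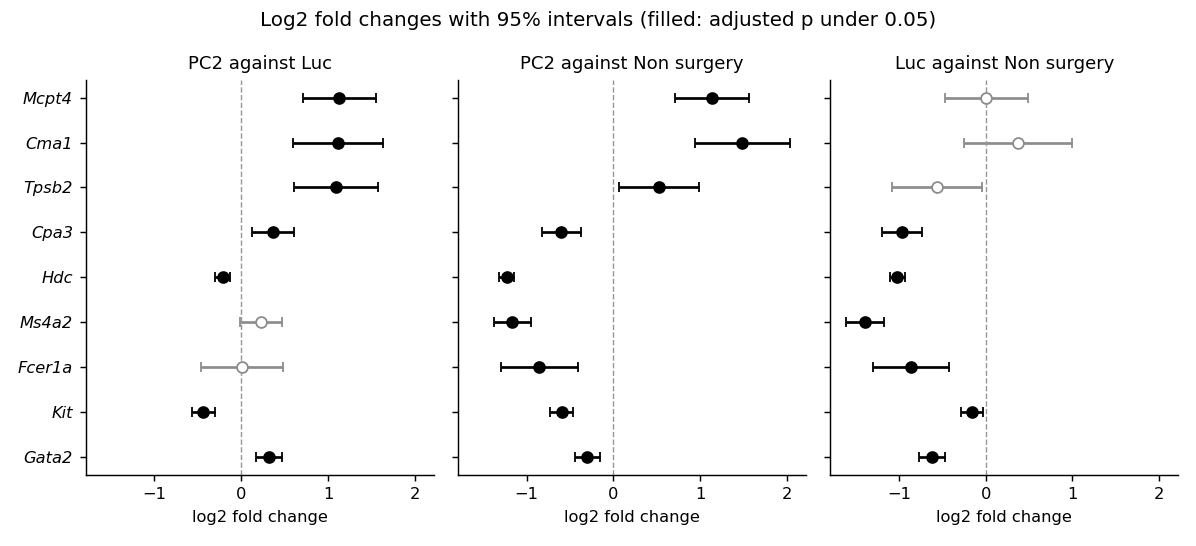
Log2 fold change (x axis) of each member in the 3 comparisons, with 95% intervals from the edgeR fit; filled points have an adjusted p under 0.05. Mcpt4, Cma1 and Tpsb2 lie near 1.1 in PC2 against Luc, and Cpa3, Hdc, Ms4a2 and Fcer1a lie between -1.39 and -0.86 in Luc against Non surgery.

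Levels were compared between genes per kilobase of exon (RPKM). The length is that of all annotated exons merged, from 998 bases in Fcer1a to 8911 in Kit. The order of genes depends on this choice of length. Hdc was highest in every group, at 9.85 ± 0.251 RPKM in PC2, 11.4 ± 0.343 in Luc and 23.1 ± 0.477 in Non surgery libraries (SD, n = 3), and Cpa3 was second, at 5.82 ± 0.217, 4.53 ± 0.388 and 8.84 ± 1.16 RPKM in the PC2, Luc and Non surgery libraries. In Non surgery libraries Ms4a2, Gata2 and Kit followed at 5.12 ± 0.442, 5.10 ± 0.247 and 4.73 ± 0.412 RPKM, which differ by less than 1 SD of the more variable, and Mcpt4, Tpsb2 and Cma1 were the 3 lowest, at 1.86 ± 0.349, 1.26 ± 0.218 and 0.974 ± 0.274 RPKM. In PC2 libraries Mcpt4, at 4.08 ± 0.585 RPKM, was level with Gata2 at 4.14 ± 0.269 RPKM, and Cma1, at 2.75 ± 0.524 RPKM, stood above Ms4a2 at 2.28 ± 0.173 RPKM, by less than its SD. Tpsb2 was lowest in PC2 and Luc libraries, at 1.82 ± 0.0899 and 0.854 ± 0.259 RPKM.

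**Figure D3:**
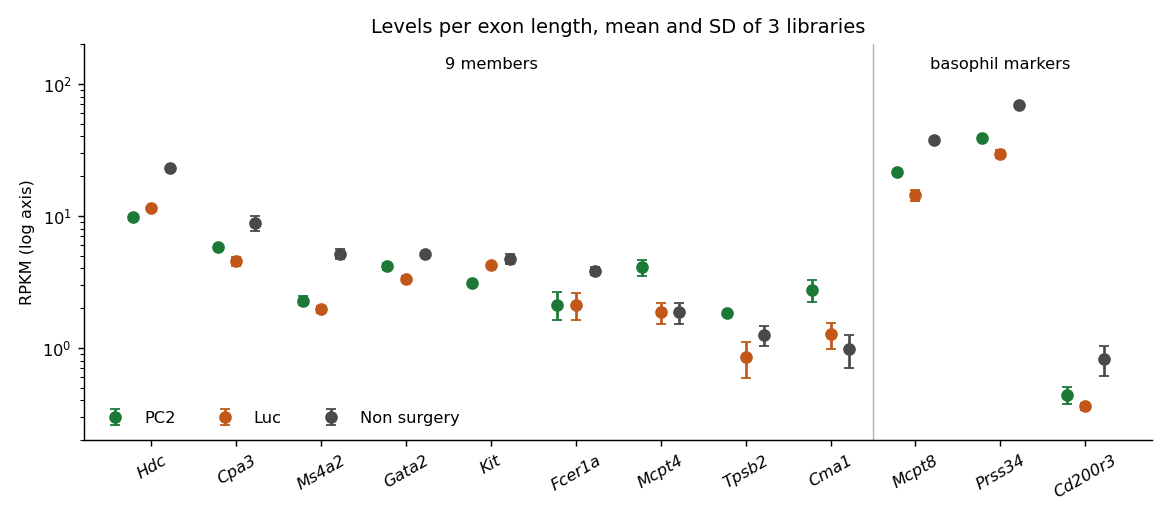
RPKM (log axis) of the 9 members and of 3 basophil markers in PC2, Luc and Non surgery libraries; points are means and bars the SD of 3 libraries. At the merged exon length used, the means of Mcpt8 and Prss34 lie above those of every member in every group, and those of Cd200r3 lie below. Mcpt4, Cma1 and Tpsb2 are the 3 lowest members in Luc and Non surgery libraries.

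The members were set against markers of other cells that express some of them. Transcripts of the tissue mast cell proteases were present in all 9 libraries, but those of basophil proteases were more abundant per length: Mcpt8, a protease of mouse basophils, had 21.3 ± 0.794 RPKM in PC2, 14.3 ± 1.31 in Luc and 37.7 ± 1.44 in Non surgery libraries, and Prss34, another, 39.0 ± 1.25 RPKM in PC2, 29.4 ± 2.02 in Luc and 69.2 ± 1.21 in Non surgery libraries. By mean CPM, which is not divided by length, Hdc was above Mcpt8 in every group. The values were 62.9 against 21.2 in PC2, 72.9 against 14.3 in Luc and 147 against 37.6 in Non surgery libraries. Mcpt8 fell 2.64-fold in Luc relative to Non surgery (log2 -1.40 ± 0.071 (SE), adjusted p = 2.91e-11) and rose 1.49-fold in PC2 relative to Luc (adjusted p = 1.67e-05). Prss34 fell 2.35-fold in Luc relative to Non surgery, and Cd200r3, a receptor of basophils and mast cells, fell 2.26-fold. Of the 5 basophil markers, 4 fell and 0 rose in Luc against Non surgery, 3 rose and 1 fell in PC2 against Luc, and 1 rose and 4 fell in PC2 against Non surgery. Their summed level was 109.5 to 110.3 CPM in PC2, 89.7 to 92.0 CPM in Luc and 167 to 170.0 CPM in Non surgery libraries, and none was at 0. By mean CPM, Cpa3, Gata2, Ms4a2 and Fcer1a had the same order of groups as Mcpt8, Prss34 and Cd200r3. The other 2 basophil markers had other orders. PC2 and Luc libraries overlapped for Fcer1a and Cd200r3, and Ms4a2 did not pass between these groups. Il3ra, a chain of the interleukin-3 receptor, had 5.08 ± 0.285 RPKM in PC2, 3.83 ± 0.208 in Luc and 3.38 ± 0.400 in Non surgery libraries, and rose in PC2 relative to Non surgery (log2 0.59 ± 0.094 (SE), adjusted p = 4.11e-05). Itga2, an integrin gene that platelets also express, had 23.2 ± 0.189 CPM in PC2, 27.1 ± 1.41 in Luc and 30.8 ± 1.27 in Non surgery libraries, and fell in PC2 relative to Luc (adjusted p = 0.00806). Cpa3 stood at 0.274 ± 0.00113 of the Mcpt8 level per length in PC2, 0.317 ± 0.0214 in Luc and 0.234 ± 0.0293 in Non surgery libraries, while Mcpt4 stood at 0.193 ± 0.0331, 0.131 ± 0.0292 and 0.0491 ± 0.00848 in the PC2, Luc and Non surgery libraries. The part of basophils in the values of Cpa3, Ms4a2, Fcer1a and Hdc was not tested.

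Likeness of pattern was measured as the Euclidean distance between log2 CPM profiles, centred per gene, over the 9 libraries of 3 pools, where a smaller value is more alike and low counts add noise. The profile of Ms4a2 lay 0.438 from Prss34, 0.577 from Mcpt8 and 0.605 from Cd200r3. Of the other members Hdc was the closest to it, at 0.608. The distances of Ms4a2 to Itga2, to Il3ra and to genes outside the lists were not measured, so nearness to basophil markers in particular was not tested. Cpa3 lay 0.601 from Gata2, 0.502 from Cd200r3, 0.567 from Prss34 and 0.628 from Mcpt8, against 1.01 from Itga2 and 1.66 from Il3ra. List genes of other cells lay nearer to Cpa3 than any basophil marker did, among them Trp63 of keratinocytes at 0.334 and Mylpf of skeletal muscle at 0.477. Among the members, Cpa3 lay 1.37, 1.99 and 2.29 from Tpsb2, Mcpt4 and Cma1. Mcpt4, Cma1 and Tpsb2 lay 1.11 to 1.19 from each other, and Tpsb2 lay 1.11 from Gata2, nearer than from the chymases. Among 15361 genes outside the gene lists, the 5 nearest to Cpa3 were Aox1, Mllt11, Sel1l3, Camta1 and Coa7, at 0.268 to 0.311, and 280 of them lay nearer to Cpa3 than Cd200r3, the nearest basophil marker, did. Aox1, an aldehyde oxidase gene, had 26.4 ± 0.680 CPM in PC2, 21.3 ± 2.12 in Luc and 38.1 ± 1.74 in Non surgery libraries.

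Markers of further cells moved in their own ways, as the plot of marker lists shows for those below except melanocyte genes. Of 11 haematopoietic progenitor genes, of interest for Kit and Gata2, 3 rose and 4 fell in PC2 against Luc, and 3 rose and 7 fell in Luc against Non surgery. Their summed level was 629 to 639 CPM in PC2, 627 to 643 in Luc and 688 to 697 in Non surgery libraries. All 6 megakaryocyte genes and all 6 erythroid genes fell in Luc against Non surgery, with summed levels of 228 to 231 CPM and 2601 to 2646 CPM in PC2, 239.6 to 246 and 2807 to 2865 CPM in Luc, and 684 to 705 and 4480.4 to 4626 CPM in Non surgery libraries. Of 8 neutrophil genes 7 fell and 1 rose in Luc against Non surgery, and 4 rose and 2 fell in PC2 against Luc; their sum was 10662 to 10828 CPM in PC2, 9759.6 to 10277 in Luc and 12207 to 12547 in Non surgery libraries. In Luc against Non surgery, 6 of 7 endothelial genes rose and 1, Vwf, fell 1.86-fold. In PC2 against Luc all 7 fell, and their sums were 422 to 429 CPM in PC2, 531 to 532 in Luc and 499.7 to 529 in Non surgery libraries. The 6 melanocyte genes, a cell type that also uses KIT, summed to 1.52 to 1.78 CPM in PC2, 1.13 to 1.35 in Luc and 1.84 to 2.46 in Non surgery libraries, with Tyr at 0 in all 9 and 1 gene tested, which did not pass. The part of these cells in the values of Kit, Gata2 and Hdc was not tested.

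Genes of joint tissues were summed in the same way. The 5 adipocyte genes all rose in PC2 against Luc, and 2 rose and 1 fell in Luc against Non surgery. Their sums were 204 to 208 CPM in PC2, 96.8 to 107 in Luc and 75.7 to 77.0 in Non surgery libraries. The 6 fibroblast and synovial lining genes all rose in Luc against Non surgery, and 2 rose and 3 fell in PC2 against Luc. They summed to 25670.1 to 25974 CPM in PC2, 22610.0 to 23382 in Luc and 5556 to 6242 in Non surgery libraries. Of 6 keratinocyte genes, which would mark skin in the sample, 3 were tested (0 rose and 1 fell in Luc against Non surgery, 0 passed in PC2 against Luc), Krt14 was at 0 in all libraries and Krt5 and Krt1 had at most 1 count in any library. The 5 skeletal muscle genes all fell in Luc against Non surgery, and 4 of 5 rose in PC2 against Luc, with sums of 20111 to 20291 CPM in PC2, 17358 to 17761 in Luc and 38193 to 39493 in Non surgery libraries. Of 10 eosinophil genes 8 rose and 1 fell in Luc against Non surgery, and all 10 fell in PC2 against Luc, with a median log2 fold change of -4.19, opposite to the mast cell proteases, and their sum was 81.2 to 87.6 CPM in PC2, 1357 to 1486 in Luc and 550.1 to 586 in Non surgery libraries. The part of fat, synovium, muscle or skin in the values of the members was not tested.

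**Figure D4:**
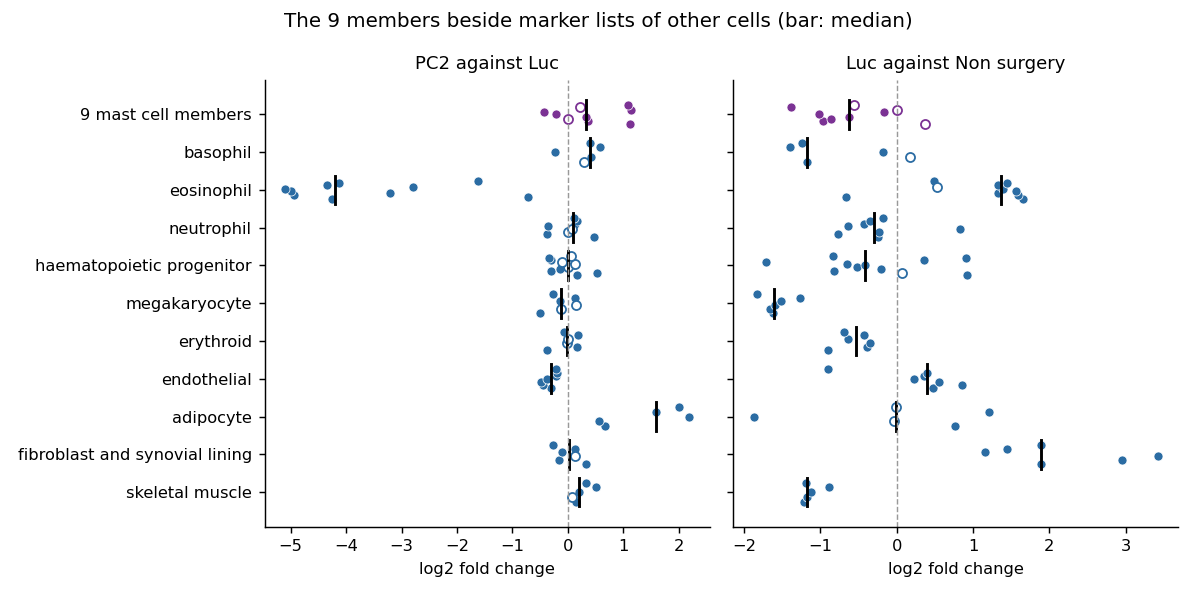
Log2 fold change (x axis) of each tested gene of the 9 members and of 10 marker lists in PC2 against Luc and Luc against Non surgery; filled points have an adjusted p under 0.05, and black bars are medians. The members spread to both sides of 0 in PC2 against Luc and have a median of -0.62 in Luc against Non surgery, where the basophil median is -1.17.

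Other genes of mast cells and of their signals were taken from lists. Of 21 other mast cell genes, 14 had enough counts for the test: 1 rose and 5 fell in PC2 against Luc, 3 rose and 6 fell in Luc against Non surgery and 3 rose and 7 fell in PC2 against Non surgery. Rab27b, a GTPase of granule secretion that platelets also use, fell 2.28-fold in Luc relative to Non surgery and 1.34-fold in PC2 relative to Luc (adjusted p = 0.000187). Enpp3, the basophil and mast cell surface enzyme CD203c, rose 3.08-fold in Luc relative to Non surgery (adjusted p = 3.72e-09), the direction opposite to Ms4a2 and Cpa3. Adora3, an adenosine receptor gene, fell 2.56-fold in PC2 relative to Luc (adjusted p = 0.00198), on 9 to 19 counts per PC2 library and 26 to 36 per Luc library, and shares 20.9% of its exon bases with Tmigd3.

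Of 12 genes that carry the signal of the IgE receptor, 1 rose and 8 fell in PC2 against Luc. In Luc against Non surgery 3 rose and 5 fell, and in PC2 against Non surgery 2 rose and 8 fell. These genes summed to 873 to 904 CPM in PC2, 987 to 1014 in Luc and 1027 to 1065 in Non surgery libraries. The 9 members summed to 139 to 144, 146 to 152 and 252 to 256 CPM in the PC2, Luc and Non surgery libraries. The part of other cells in the values of these 12 genes was not tested. Lat, the adaptor of mast cells, T cells and platelets, fell 2.18-fold in Luc relative to Non surgery (adjusted p = 6.12e-09), while Plcg1, a phospholipase, rose 1.45-fold. In PC2 relative to Luc the falls were led by Plcg2, at -0.39 ± 0.036 (SE) (adjusted p = 3.52e-07), and Lat2, at -0.31 ± 0.097 (SE) (adjusted p = 0.0200), whose exons share 36.3% of their bases with Rfc2.

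Of 7 genes of cytokines that grow or activate mast cells, Il3 and Il9 were at 0 in all libraries, and of the 5 tested 3 rose and 1 fell in Luc against Non surgery and 0 passed in PC2 against Luc. Il33, an alarmin that acts on mast cells through the receptor ST2, had 17.9 ± 1.63 CPM in PC2, 21.1 ± 2.24 in Luc and 7.66 ± 1.18 in Non surgery libraries, a 2.76-fold rise in Luc relative to Non surgery (adjusted p = 7.67e-09). Tslp, another alarmin gene, rose 2.34-fold in PC2 relative to Non surgery (adjusted p = 0.00679), on 20 to 21 counts per PC2 library and 4 to 11 per Non surgery library. On the histamine side, next to the fall of Hdc, Hrh2, a histamine receptor gene, fell 1.35-fold in PC2 relative to Luc (adjusted p = 0.00528). Slc22a3, a transporter that takes up histamine, fell 1.77-fold in Luc relative to Non surgery (adjusted p = 5.39e-05) and rose 1.34-fold in PC2 relative to Luc (adjusted p = 0.0247), and Hnmt, which inactivates histamine, rose 1.27-fold in Luc relative to Non surgery (adjusted p = 0.0359). Of the 4 tested genes of this list of 7, 1 rose and 1 fell in Luc against Non surgery and 1 rose and 1 fell in PC2 against Luc.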

How the data were processed

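The authors deposited raw read counts for Ensembl genes, with 53379 IDs and 5 HTSeq summary lines in the table of each library. HISAT2, HTSeq, DESeq2 and mm10 are named in the submitters' processing notes; the sources used here give no versions, annotation release, strand setting or read filters. Per the labels, each group is 1 mixed RNA with 3 technical repeats, and no batch is named. Summary lines were dropped before scaling: reads outside genes were 7.29% to 9.25% and ambiguous reads 5.72% to 6.65% of each table. Symbols, positions and exon lengths came from GENCODE M21 (GRCm38), which held 53274 of the IDs. Pairs of libraries within a group differed by 3.94 to 8.67 in chi-square per degree of freedom, so none was a copy of another.

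Counts of all 9 libraries entered 1 quasi-likelihood fit in edgeR 4.0.16 (R 4.3.3) with a group factor, TMM factors and filterByExpr (minimum count 10; 17478 genes kept). Tests were two-sided with Benjamini-Hochberg adjustment over all genes; SE was derived from the log2 fold change and F. CPM and RPKM use TMM-scaled library sizes and, for RPKM, merged exon length. Distances used log2 CPM with a pseudocount of 0.5 for genes of at least 1 CPM. The fit was tested on simulated data.

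The members and the 16 other lists were chosen with earlier results of these data known. Named genes are all members and the 2 largest changes per other list and comparison among genes that passed. List genes at 0 throughout and the 5 genes nearest to Cpa3 are also named. Few marker genes of other cells that this rule names are printed. The plot of marker lists carries no gene names, and leaves out keratinocyte and melanocyte genes and PC2 against Non surgery. Kitl, Fcer1g, Il3ra, Itga2, Vwf, Trp63, Mylpf, Krt5, Krt1, Mcpt8, Prss34 and Cd200r3 outside the comparisons where the rule takes them, and the low-count genes of the closing section were chosen after their values were seen. Some genes that the rule names are not reported here. Alternatives were median-of-ratios factors, library size only, no low-count filter, DESeq2 1.42.0, only the 2 groups compared, the replicate number as a block, and each library left out.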

Additional observations from a re-analysis of the deposited data

How the results depend on the processing

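Under the other settings and with each library left out, the number of members that passed was 6 to 7 in PC2 against Luc, 5 to 7 in Luc against Non surgery and 8 to 9 in PC2 against Non surgery, against 7, 6 and 9 as reported. The calls of Mcpt4, Cma1 and Tpsb2 in PC2 against Luc and those of Cpa3, Hdc, Ms4a2, Fcer1a and Gata2 in Luc against Non surgery held under all of these. Of 405 repeated values of the members, 375 kept direction and side of the threshold, 18 no longer passed, 2 newly passed and 10 changed sign, none of them in a value that passed; the calls that ended are given with Tpsb2, Cpa3, Kit and Gata2. The sign changes were those of Mcpt4 in Luc against Non surgery, at -0.015 with DESeq2, -0.015 with median-of-ratios factors, -0.0019 without the filter, -0.020 with only the 2 groups, -0.00040 with the replicate block and -0.14 and -0.15 without Luc replicate 1 and Non surgery replicate 2 (up to 0.13 with other libraries left out), and of Fcer1a in PC2 against Luc, at -0.19, -0.11 and -0.043 without PC2 replicate 1, Luc replicate 3 and Luc replicate 2 (up to 0.21 with other libraries left out); the cause was not tested.

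Genes changed at least 2-fold numbered 483 to 740 in PC2 against Luc (578 as reported), 2606 to 3227 in Luc against Non surgery (2752) and 2739 to 3386 in PC2 against Non surgery (2860). With library size as the only scaling, the median log2 fold change of all genes in Luc against Non surgery was 0.19, against 0.025 with TMM, and in PC2 against Non surgery 0.17, against 0.010; the shift in split is given with the counts of members. Same-numbered libraries of different groups did not deviate together (correlations of -0.027 to 0.057), so the numbers were not taken as pairs; with the replicate block 7, 6 and 8 members passed, Tpsb2 being lost in PC2 against Non surgery. In Luc and Non surgery libraries Cma1 had 12 to 32 counts and Tpsb2 20 to 40. At these counts their values could hide changes smaller than their intervals in Luc against Non surgery.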

Other observations

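Of the other mast cell genes, 7 had too few counts for the test, and they were looked at after their values were seen. Among them, genes known from mucosal mast cells of the mouse had few counts: Mcpt1 had 0, 3 and 0 counts and Mcpt2 8, 4 and 4 counts, summed over the 3 libraries of the PC2, Luc and Non surgery groups, while Mcpt4 had 262, 117 and 104. Mcpt9 was at 0 in all 9 libraries. Mrgprb2, a receptor of connective tissue mast cells in the mouse, had 5 to 9 counts per PC2 library, 0 to 6 per Luc library and 1 to 5 per Non surgery library. Tpsab1, the gene of the other mast cell tryptase, had 1 to 5 counts per PC2 library, 0 to 7 per Luc library and 7 to 10 per Non surgery library, an order that differs from that of Tpsb2; these counts were not tested.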
